A study of Mus musculus with 16 samples.

Results

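LRRC8 proteins are the subunits of the volume-regulated anion channel (VRAC), and the genes described here are the 5 members of the family, *Lrrc8a* (ENSMUSG00000007476.19), *Lrrc8b* (ENSMUSG00000070639.6), *Lrrc8c* (ENSMUSG00000054720.13), *Lrrc8d* (ENSMUSG00000046079.17) and *Lrrc8e* (ENSMUSG00000046589.8), out of 20622 genes in the total RNA data. The genes were listed by symbol and found through their gene identifiers. The family was chosen by measured values of these same libraries, since a rise of *Lrrc8b* in footprints per mRNA between the cell lines was already known. The differences between the cell lines are therefore given as a description, with standard errors and without p-values for the subunits.

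Ribosome-protected fragments (RPFs, the stretches of mRNA covered by a ribosome) and cytoplasmic total RNA were sequenced from the same lysates of mouse KM cells, a line grown from lung tumours of 1 male mouse that carried Rosa26 LSL-MYC/LSL-MYC among its engineered alleles, in which Ad5-SPC-CRE had switched on the transgenes. KM_4A2cr cells had received Cas9 and a guide against the coding region of *Eif4a2*, which encodes an RNA helicase of translation, and were a pool of 4 clones without detectable eIF4A2 protein, whereas KM_NTC cells carried a non-targeting guide. Cells of either line had been through lentiviral transduction and puromycin selection and were left untreated. There were 4 replicates of each line, made on different days, and thus 8 RPF and 8 total RNA libraries.

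VRAC opens when cells swell and lets chloride and small organic solutes leave, which carries water out with them and brings the cell back towards its volume. LRRC8A is needed in every native channel and for its arrival at the plasma membrane, and it assembles with LRRC8B, LRRC8C, LRRC8D or LRRC8E into hexamers. The partners set what the channel passes: LRRC8D is known for the transport of neutral osmolytes such as taurine and of platinum drugs, and LRRC8C and LRRC8E for the passage of cyclic dinucleotides such as cGAMP. Much less is known of LRRC8B.

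Libraries held between 4512403 and 9621848 RPF counts and between 5350919 and 9312622 total RNA counts, with RPF replicate 4 of KM_4A2cr the least deep. *Eif4a2* RPFs were 97.7, 122, 99.8 and 389 CPM in KM_NTC replicates 1 to 4 and 51.0, 88.4, 74.8 and 346 in KM_4A2cr, lower in each pair, with replicate 4 high in either line. All 6 epithelial markers examined were expressed, with a summed level of 4446 to 5219 TPM in KM_NTC and 4331 to 6725 in KM_4A2cr. *Sftpc* and *Sftpb*, surfactant genes examined as markers of alveolar type II cells, were at 0 TPM in every library. Another marker of that cell type, *Abca3*, averaged 31.2 TPM in KM_NTC and 42.6 in KM_4A2cr, and *Lamp3* 1.02 and 0.98. The remaining 6 of 8 markers, *Sftpc* and *Sftpb* among them, stayed below 1 TPM throughout. Markers of fibroblasts (5 of 6), immune cells (4 of 4) and endothelium (2 of 3) were likewise below 1 TPM in every library. The values are bulk values of cultured cells, so that fewer cells using a gene and less RNA per cell cannot be told apart.

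Within KM_NTC cells, *Lrrc8c* was the most abundant subunit and *Lrrc8e* the least. On the TPM scale, which takes account of transcript length, *Lrrc8c* mRNA was at 133 ± 36.1 TPM (SD, n = 4), *Lrrc8a* at 86.5 ± 20.1, *Lrrc8b* at 42.3 ± 11.2, *Lrrc8d* at 22.2 ± 8.56 and *Lrrc8e* at 1.53 ± 0.389. Neighbours in that order differed by 1.53-fold (*Lrrc8c* over *Lrrc8a*), 2.07-fold (*Lrrc8a* over *Lrrc8b*), 1.98-fold (*Lrrc8b* over *Lrrc8d*) and 13.9-fold (*Lrrc8d* over *Lrrc8e*) within libraries. The order was the same in 4 of 4 KM_NTC libraries, which gives a 2-sided exact sign-flip p of 0.13 for the steps that do not involve *Lrrc8b*, the smallest that 4 libraries allow, so that no step could pass a threshold of 0.05. Steps with *Lrrc8b* are given without a test, since its KM_NTC values were part of the comparison that chose the family. The obligatory subunit was thus not the most abundant mRNA of its family in these cells.

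The order changed once ribosomes were counted. RPFs were highest for *Lrrc8c* at 526 ± 141 CPM (CPM, TMM-scaled counts relative to the library total; SD, n = 4), followed by *Lrrc8a* at 115 ± 42.7, *Lrrc8d* at 52.9 ± 20.7, *Lrrc8b* at 14.5 ± 6.06 and *Lrrc8e* at 6.08 ± 3.24. *Lrrc8b* stood above *Lrrc8d* in mRNA and 3.75-fold below it in RPFs, in 4 of 4 libraries in each case. RPF values are not divided by the length of the coding sequence, which was not used here, and the LRRC8 proteins are of similar length.

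*Lrrc8b* carried the fewest footprints for its mRNA. With RPF CPM divided by TPM and set relative to *Lrrc8c* of the same lysate, *Lrrc8b* reached 11.5%, 5.45%, 9.19% and 7.96% in KM_NTC replicates 1 to 4, with a mean of 8.53% ± 2.53 (SD, n = 4). *Lrrc8a* was at 32% ± 1.78, *Lrrc8d* at 61.4% ± 7.09 and *Lrrc8e* at 92.9% ± 6.72. A second version used counts of only the isoform that carries the RPFs in place of TPM. The log2 value relative to *Lrrc8c* then moved from -1.65 to -0.68 for *Lrrc8a* and from -0.71 to 0.38 for *Lrrc8d*. That version leaves out mRNA, since this isoform held 52.2% of *Lrrc8a* TPM and 48.1% of *Lrrc8d* TPM in KM_NTC. RPFs were aligned to 1 transcript per gene and stayed the same. The place of *Lrrc8d* above *Lrrc8c* in that version is therefore not read as a result. The value of *Lrrc8b* was 12.1-fold below that of *Lrrc8c*, 11.3-fold below *Lrrc8e*, 7.42-fold below *Lrrc8d* and 3.88-fold below *Lrrc8a*, each in 4 of 4 lysates.

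Of the 10 pairs of subunits, 9 differed in the same direction in all 4 KM_NTC lysates. For those without *Lrrc8b* the 2-sided exact sign-flip p was 0.13, the smallest that 4 lysates allow and above 0.05 by construction. After Benjamini-Hochberg adjustment the sign-flip p was 0.139, over all 10 pairs and thus with those of *Lrrc8b* counted in. The exception was *Lrrc8c* against *Lrrc8e*, which differed by 1.08-fold with an exact sign-flip p of 0.25. The pairs with *Lrrc8b* are a description, because its KM_NTC footprints per mRNA are 1 side of the difference known when the family was chosen. In the KM_4A2cr lysates, *Lrrc8b* was again the lowest subunit in every lysate, 7.21-fold below *Lrrc8c* on average.

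**Figure D1:**
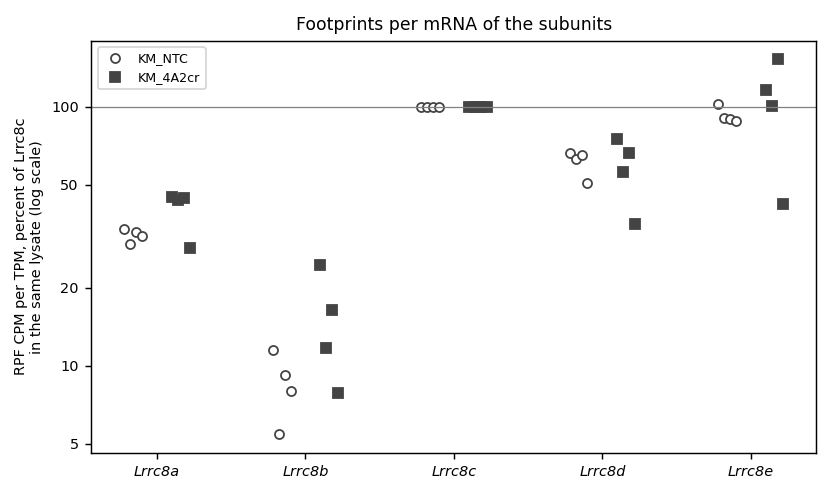
RPF CPM per TPM of each subunit as a percentage of the *Lrrc8c* value in the same lysate, on a log axis, with open circles for the 4 KM_NTC lysates and filled squares for the 4 KM_4A2cr lysates in replicate order. *Lrrc8b* lies lowest in every lysate, between 5.45% and 11.5% in KM_NTC and between 7.84% and 24.5% in KM_4A2cr.

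*Lrrc8a*, the subunit that every channel needs, had RPF means of 115 CPM in KM_NTC and 155 CPM in KM_4A2cr. Its RPFs were 143, 55.9, 111 and 149 CPM in KM_NTC replicates 1 to 4 and 218, 89.5, 183 and 129 CPM in KM_4A2cr. KM_4A2cr was higher in pairs 1 to 3 and lower in pair 4, and the ranges of the lines overlapped. Total RNA was 264, 131, 199.7 and 226 CPM in KM_NTC and 346, 154, 279 and 185 CPM in KM_4A2cr, again lower only in pair 4. The fitted log2 fold change (KM_4A2cr over KM_NTC) was 0.46 (standard error 0.17) in RPFs and 0.21 (standard error 0.15) in total RNA. The change in footprints per mRNA, called TE below and fitted as the difference between these kinds of library, was 0.25 (standard error 0.10) and was above 0 in each pair. *Lrrc8a* lies on chromosome 2, where the median RPF value over 833 tested genes was -0.21, so that it stood above 95% of the genes of its chromosome. The part of that shift of chromosome 2 in its values was not tested.

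*Lrrc8b* had the largest difference of the family. RPFs were 19.6, 6.85, 19.0 and 12.4 CPM in KM_NTC and 70.4, 20.8, 51.8 and 15.3 CPM in KM_4A2cr, from 217, 69, 139 and 59 counts and 583, 169, 369 and 57 counts. Each KM_4A2cr library was above its KM_NTC partner, by 1.83, 1.57, 1.43 and 0.30 on the log2 scale. The ranges of the lines overlapped, because KM_4A2cr replicate 4 lay below KM_NTC replicates 1 and 3.

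*Lrrc8b* mRNA moved in the same direction by less. Total RNA was 172, 139.9, 196 and 119.9 CPM in KM_NTC and 330.3, 215, 343 and 129 CPM in KM_4A2cr. Pairs differed by 0.94, 0.62, 0.80 and 0.11 on the log2 scale, so pair 4 was the smallest here as well. By TPM, pair 4 was lower in KM_4A2cr, at 21.0 against 26.3 TPM in KM_NTC, whereas the other pairs were higher. The direction of pair 4 in mRNA thus depended on the scale. RPF CPM per total RNA CPM, the level of footprints per mRNA within this gene, was 0.114, 0.0489, 0.0969 and 0.103 in KM_NTC and 0.213, 0.0966, 0.151 and 0.119 in KM_4A2cr, higher in each pair. The fits gave log2 fold changes of 1.38 (standard error 0.22, 2.60-fold) in RPFs, 0.62 (standard error 0.16, 1.54-fold) in total RNA and 0.74 (standard error 0.13, 1.67-fold) in TE. In rank from the top these were place 56 of 10291 genes, place 441 of 10880 and place 41 of 9989. The places are a description only, since the family was chosen on this comparison. Without replicate 4 the log2 fold changes were 1.64, 0.78 and 0.85.

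*Lrrc8c*, the subunit highest in RPFs and a partner known for cyclic dinucleotide transport, had RPF means of 526 CPM in KM_NTC and 518 CPM in KM_4A2cr. RPFs were 523, 355, 699.6 and 527 CPM in KM_NTC and 674, 390.1, 629 and 378 CPM in KM_4A2cr, with 2 pairs higher and 2 lower. Total RNA was 547, 411, 689 and 422 CPM in KM_NTC and 805, 489.5, 712 and 259 CPM in KM_4A2cr, lower in pair 4 only. Its log2 fold changes were -0.03 (standard error 0.16) in RPFs, 0.04 (standard error 0.20) in total RNA and -0.08 (standard error 0.10) in TE. Its direction was not settled, since leaving out replicate 4 gave 0.12 in RPFs and 0.28 in total RNA.

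*Lrrc8d*, the partner known for taurine and platinum drugs, was spread widely over the replicates. RPFs were 53.4, 44.3, 81.4 and 32.7 CPM in KM_NTC and 84.9, 44.4, 108 and 19.9 CPM in KM_4A2cr. Total RNA followed at 46.4, 44.9, 67.6 and 28.4 CPM and 74.2, 54.8, 102 and 21.2 CPM. Replicate 3 was the highest and replicate 4 the lowest of each line in either kind of library. The log2 fold changes were 0.14 (standard error 0.20) in RPFs, 0.32 (standard error 0.17) in total RNA and -0.17 (standard error 0.11) in TE, and without replicate 4 they were 0.37, 0.51 and -0.14. Its TE was below 0 in each pair, at -0.008, -0.28, -0.18 and -0.29, in the direction opposite to *Lrrc8a* and *Lrrc8b*, although pair 1 was close to no difference.

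*Lrrc8e*, the other partner known for cyclic dinucleotides, was scarce. RPFs were 6.34, 2.98, 4.52 and 10.5 CPM in KM_NTC and 11.7, 3.94, 4.21 and 7.27 CPM in KM_4A2cr, from 27 to 97 counts a library. Total RNA was 3.51, 2.07, 2.70 and 5.17 CPM and 6.54, 2.67, 1.70 and 6.45 CPM, from 9 to 40 counts. The lines overlapped, and the log2 fold changes of 0.23 (standard error 0.25) in RPFs, 0.33 (standard error 0.27) in total RNA and -0.13 (standard error 0.28) in TE were about as large as their errors or smaller.

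**Figure D2:**
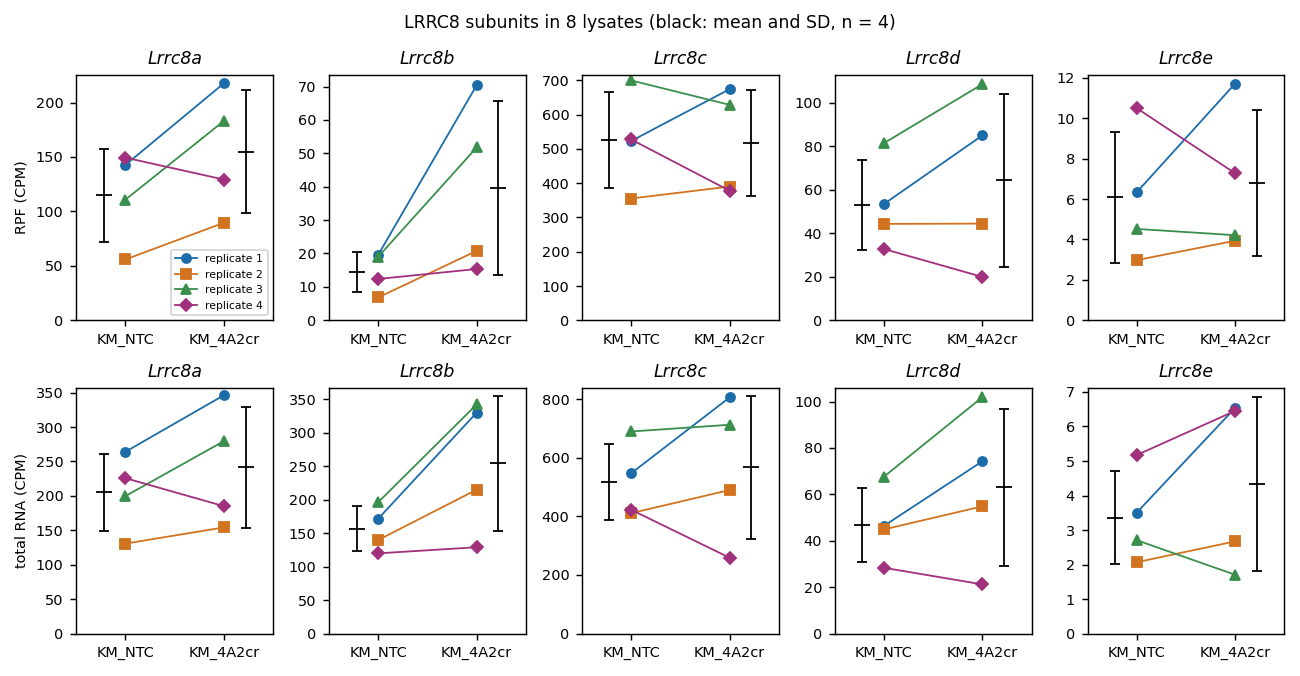
RPF CPM (top) and total RNA CPM (bottom) of the 5 subunits, from 0, with 1 coloured line for each replicate pair joining KM_NTC to KM_4A2cr and the mean with SD (n = 4) in black. *Lrrc8b* rises in each pair, from 6.85 to 19.6 CPM in KM_NTC to between 15.3 and 70.4 CPM in KM_4A2cr in RPFs, and replicate 4 is lower in KM_4A2cr for *Lrrc8a*, *Lrrc8c* and *Lrrc8d*.

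All 5 subunits passed the filter on low counts of the RPF, total RNA and TE fits, and a stricter filter removed *Lrrc8e*. By edgeR's quasi-likelihood test at an adjusted p under 0.1 over all genes, 1 of the 5, *Lrrc8b*, was past the threshold and higher in KM_4A2cr in each kind of fit, a count given as a description only. Over all genes, 10.3% were called in RPFs (6.6% higher and 3.72% lower), 6.13% in total RNA (4.35% higher and 1.78% lower) and 2.87% in TE (1.87% higher and 1.0% lower). Nothing is read from the count of subunits beside these shares, since the family was chosen on this comparison. Without replicate numbers as a block, edgeR called 0 genes in each kind, with 365 genes in RPFs, 362 in total RNA and 22 in TE at an unadjusted p under 0.05.

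**Figure D3:**
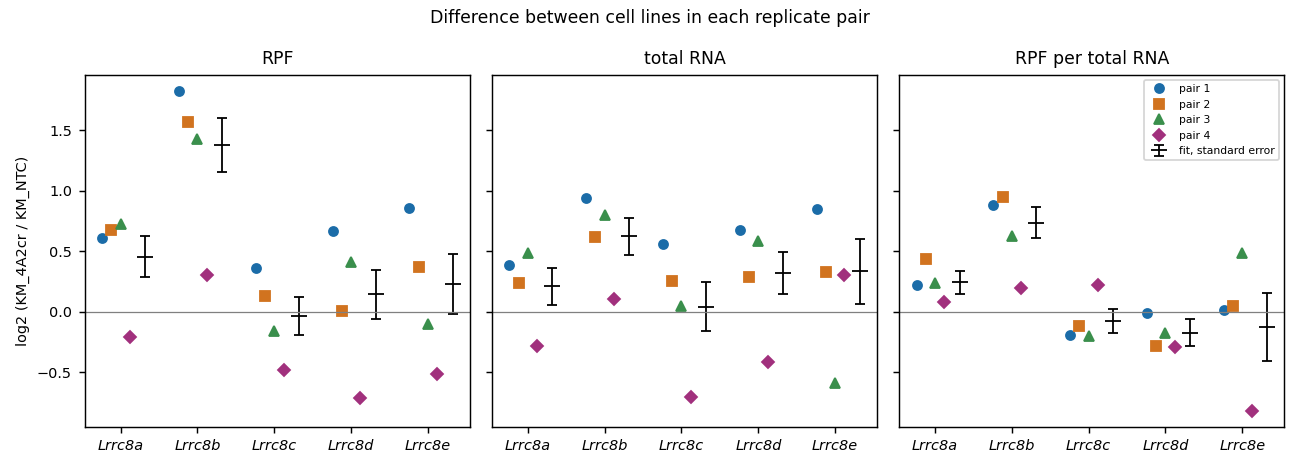
log2 ratio of KM_4A2cr to KM_NTC for each subunit in RPFs, total RNA and RPFs per total RNA, with 1 coloured symbol per replicate pair and the fitted value with its standard error in black. All 4 pairs lie above 0 for *Lrrc8b* in each panel, with pair 4 the lowest at 0.30, 0.11 and 0.20.

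The makeup of the family can be given as each subunit's share of the counts of all 5 within a library, which does not depend on the scaling between libraries. *Lrrc8c* held 73.7% ± 3.14 (SD, n = 4) of the RPF counts in KM_NTC and 67.0% ± 3.54 in KM_4A2cr, and *Lrrc8a* 15.9% ± 4.48 and 19.8% ± 3.03. *Lrrc8d* held 7.51% ± 2.26 and 7.71% ± 3.08, and *Lrrc8e* 0.854% ± 0.412 and 0.894% ± 0.397. The ranges of the lines overlapped for each of these 4. Within replicate pairs, the RPF share of *Lrrc8c* was lower in KM_4A2cr in 4 of 4 pairs and that of *Lrrc8a* higher in 4 of 4, whereas *Lrrc8d* and *Lrrc8e* were each higher in 2 and lower in 2.

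*Lrrc8b* held 1.97% ± 0.511 of the RPF counts in KM_NTC and 4.63% ± 1.70 in KM_4A2cr. The highest KM_NTC library was at 2.64% (exact 95% binomial interval 2.3 to 3.01) and the lowest KM_4A2cr library at 2.79% (2.12 to 3.6), so that the ranges met without overlapping, within the counting error of those 2 libraries. The intervals cover counting error only. In mRNA, by TPM, *Lrrc8b* made up 14.7% ± 1.78 of the family in KM_NTC and 19.4% ± 1.55 in KM_4A2cr, with ranges of 12.6% to 16.9% and 17.8% to 20.8%. *Lrrc8b* was thus a larger part of the family's mRNA than of its footprints in either line. The mRNA shares of *Lrrc8a* were 30.8% and 30.7%, of *Lrrc8c* 46.3% and 41.1%, of *Lrrc8d* 7.61% and 8.07% and of *Lrrc8e* 0.572% and 0.713%, in KM_NTC and KM_4A2cr.

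Relative to the obligatory subunit, there were 0.129 ± 0.0369 *Lrrc8b* RPF counts for each *Lrrc8a* count in KM_NTC (SD, n = 4) and 0.239 ± 0.0886 in KM_4A2cr. *Lrrc8c* counts per *Lrrc8a* count were 4.97 ± 1.58 and 3.45 ± 0.638, those of *Lrrc8d* 0.530 ± 0.278 and 0.408 ± 0.188, and those of *Lrrc8e* 0.0522 ± 0.0131 and 0.0443 ± 0.0151. The ranges overlapped for each partner, although within pairs the ratio of *Lrrc8b* was higher in 4 of 4 and that of *Lrrc8c* lower in 4 of 4. The summed RPFs of the 5 subunits were 714 ± 186 CPM in KM_NTC and 783 ± 272 CPM in KM_4A2cr. By replicate the sums were 745, 465, 915 and 732 CPM in KM_NTC and 1059, 549, 976 and 550 CPM in KM_4A2cr. The family as a whole was thus higher in KM_4A2cr in pairs 1 to 3 and lower in pair 4.

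**Figure D4:**
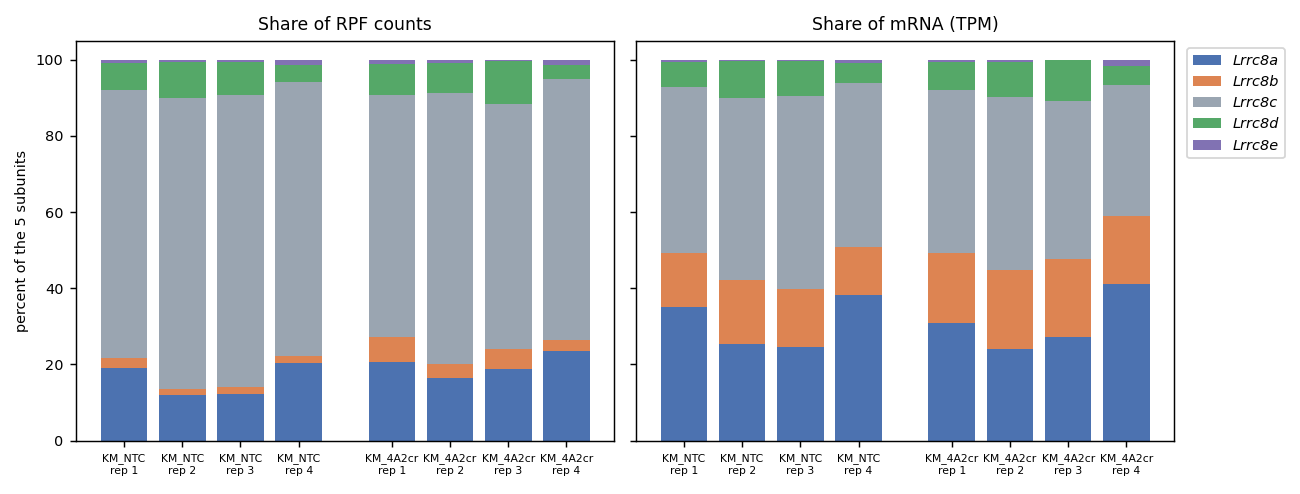
Share of each subunit in the counts of the 5, in percent, as stacked bars from 0 to 100 for the 8 libraries, in RPF counts (left) and in mRNA as TPM (right). *Lrrc8c* fills most of each RPF bar, and the *Lrrc8b* band is thin in RPFs (1.97% and 4.63% on average) and wide in mRNA (14.7% and 19.4%).

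The annotation used by the authors holds 1 isoform each for *Lrrc8b* (6726 nucleotides), *Lrrc8c* (6976) and *Lrrc8e* (3878), and 2 each for *Lrrc8a* and *Lrrc8d*. For *Lrrc8a*, the isoform to which RPFs were assigned (4301 nucleotides) made up 52.2% of the gene's TPM in KM_NTC and 51.7% in KM_4A2cr. For *Lrrc8d*, that isoform (3923 nucleotides) made up 48.1% and 53.0%. Total RNA was therefore summed over isoforms.

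*Lrrc8b*, *Lrrc8c* and *Lrrc8d* are neighbours on chromosome 5 in the RefSeq annotation of GRCm38.p6, *Lrrc8a* lies on chromosome 2 and *Lrrc8e* on chromosome 8. In RPFs the 3 genes of the cluster had log2 fold changes of 1.38, -0.03 and 0.14. The tested genes beside the cluster, *Zfp951* and *Zfp326*, had -0.31 and 0.07. Over the 656 tested genes of chromosome 5 the median was 0.01. *Lrrc8b* stood above 99.5% of them, a description only, since the family was chosen on this comparison. Beside *Lrrc8a*, *Kyat1* had -0.40 and *Phyhd1* 0.62, and beside *Lrrc8e*, *Trappc5* had -0.04 and *Map2k7* 0.04.

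Likeness of pattern was measured as Pearson's r of log2 CPM over the 8 RPF libraries, among 7320 genes with a mean of at least 10 CPM. These correlations describe 8 libraries that share replicate numbers and cell lines. Closest to *Lrrc8a* were *Ndst1* (r = 0.991), *Stt3b* (0.988) and *Pcolce2* (0.982), and closest to *Lrrc8b* were *Cldn18* (0.991), *Rnf149* (0.987) and *C3ar1* (0.984). *Cldn18* encodes a claudin of tight junctions, and *C3ar1* the receptor for complement C3a. For *Lrrc8c* they were *Qpctl* (0.981), *Mfsd10* (0.975) and *St3gal6* (0.975), for *Lrrc8d* *Slc16a6* (0.971), *Scamp4* (0.967) and *St7* (0.963), and for *Lrrc8e* *Stt3a* (0.977), *Tnfrsf1b* (0.971) and *B4galt7* (0.968). No subunit was among the 3 closest genes of another, although *Lrrc8e*, with means of 6.08 and 6.78 CPM, was too scarce to be among the genes searched. Within the family, r was highest for *Lrrc8a* with *Lrrc8b* (0.811) and lowest for *Lrrc8d* with *Lrrc8e* (-0.17).

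VRAC works beside other channels and transporters that set cell volume. In the same fits, 5 lists of such genes and of genes linked to the channel's cargoes were examined. The list for cyclic dinucleotides and platinum is of the latter kind. All adjusted p-values are by edgeR over all genes. In RPFs, 77 listed genes were tested, of which 13 rose and 1 fell, beside 6.6% and 3.72% of all genes. In total RNA 10 of 73 rose and 0 fell, beside 4.35% and 1.78% of all genes, although library-size scaling alone shifts the all-gene median by -0.13 (RPFs) and -0.16 (total RNA). In TE 2 of 71 rose and 1 fell, beside 1.87% and 1.0% of all genes. Without replicate 4, 38 of 77 rose and 5 fell in RPFs, where 33.4% of all tested genes were called. With any other replicate left out, 1 listed gene was called. The lists were chosen with earlier results of these data known, so the counts of each list are a description.

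Among other chloride channels, 2 of 21 tested genes passed the test in RPFs, both higher, with 16 above 0 and a median log2 fold change of 0.26, against -0.009 over all genes. *Clic3*, of the chloride intracellular channel family, rose from 11.9 ± 2.39 to 29.8 ± 9.96 CPM (SD, n = 4), a fitted rise of 1.3 in log2 units (SE 0.15; edgeR adjusted p = 0.00453), and its mRNA rose by 1.23 (edgeR adjusted p = 0.00391). *Clcn4*, an endosomal chloride/proton exchanger, rose by 0.61 (standard error 0.13, adjusted p = 0.0381 by edgeR). The most abundant members did not pass: *Ano1*, a calcium-activated chloride channel, was at 434 ± 89.7 and 587 ± 200 CPM, and *Clic1* at 329 ± 46.3 and 276 ± 13.6 CPM. In total RNA 1 of 20 rose and 0 fell, and in TE 0 of 20 passed.

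Of the cation-chloride cotransporters, exchangers and WNK pathway genes, which bring salt in or let it out as volume changes, 3 of 17 rose in RPFs and 0 fell, with a median of 0.13. *Slc9a2*, a sodium/proton exchanger, rose by 0.90 (adjusted p = 0.0690 by edgeR), and *Slc12a4*, the potassium-chloride cotransporter KCC1, by 0.46 (adjusted p = 0.0669 by edgeR). *Slc12a2*, the sodium-potassium-chloride cotransporter NKCC1, was the most abundant at 844 ± 185 and 992 ± 310.1 CPM and did not pass. In total RNA 3 of 18 rose. In TE 2 of 16 rose, *Cul3*, a ubiquitin ligase scaffold that acts on WNK kinases, by 0.41 (adjusted p = 0.0644 by edgeR), and *Cab39* by 0.37 (adjusted p = 0.0756 by edgeR), a partner of the kinases downstream of WNK that is named here because the count is small.

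Of the genes for organic osmolytes and amino acids, the solutes that VRAC can release, 1 of 13 rose and 1 fell in RPFs, with a median of -0.15. *Akr1b3*, the aldose reductase that makes sorbitol, fell by 0.57 on the log2 scale (standard error 0.12, adjusted p = 0.0366 by edgeR) and was below its partner in 4 of 4 pairs. *Slc5a3*, the sodium/myo-inositol transporter, rose by 0.52 (adjusted p = 0.0687 by edgeR). *Nfat5*, the transcription factor of the response to high tonicity, fell by 0.42 in TE (adjusted p = 0.0865 by edgeR), with RPFs of 42.1 ± 5.00 and 37.4 ± 11.4 CPM. The amino acid transporter genes *Slc38a2*, at 4318 ± 1049 and 3185 ± 1068 CPM, and *Slc3a2*, at 1453 ± 945 and 1473 ± 639.98 CPM, did not pass. In total RNA 0 of 13 passed.

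Water, potassium and stretch-activated channels had the most calls of the 5 lists, with 6 of 16 higher in RPFs, 0 lower and a median of 0.45, beside 6.6% higher and 3.72% lower over all genes. *Aqp3*, a channel for water and glycerol, rose by 1.88 (standard error 0.47, adjusted p = 0.0609 by edgeR), from 9.03 ± 9.27 to 28.6 ± 22.1 CPM, and was higher in 3 of 4 pairs. *Kcnq1*, a voltage-gated potassium channel, rose by 1.19 in RPFs (adjusted p = 0.0281 by edgeR) and by 0.97 in total RNA (edgeR adjusted p = 0.0208), with RPFs and total RNA higher in 4 of 4 pairs. *Kcnk6*, a two-pore potassium channel, rose by 0.76 (adjusted p = 0.0749 by edgeR). *Kcnma1*, the large-conductance calcium-activated potassium channel, rose by 1.3 in RPFs (adjusted p = 0.0772 by edgeR), although its mRNA averaged 0.105 TPM in KM_NTC and 0.0225 in KM_4A2cr and was too scarce to test. *Kcnn4*, a calcium-activated potassium channel, rose by 0.65 in total RNA (adjusted p = 0.0818 by edgeR), 1 of 4 genes of 12 that rose there, and the abundant *Aqp8*, at 643 ± 353 and 706 ± 200.4 CPM in RPFs, did not pass. In TE 0 of 12 passed.

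Of the genes for cyclic dinucleotides and platinum, further cargoes of the channel, 1 of 10 rose in RPFs and 0 fell, with a median of 0.24. *Slc46a1*, the proton-coupled folate transporter, rose from 23.1 ± 8.79 to 39.9 ± 8.67 CPM (log2 fold change 0.84, adjusted p = 0.0316 by edgeR). In total RNA 2 of 10 rose, *Slc46a1* by 0.68 (adjusted p = 0.0989 by edgeR) and *Tmem173*, which encodes the cGAMP receptor STING, by 0.56 (adjusted p = 0.0579 by edgeR). *Abcc1*, a drug and glutathione conjugate exporter, and *Enpp1*, which cleaves cGAMP outside the cell, were the most abundant in RPFs, at 1342 ± 785 and 1364 ± 491 CPM and at 189.9 ± 179 and 199.7 ± 92.1 CPM, and did not pass. In TE 0 of 10 passed.

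**Figure D5:**
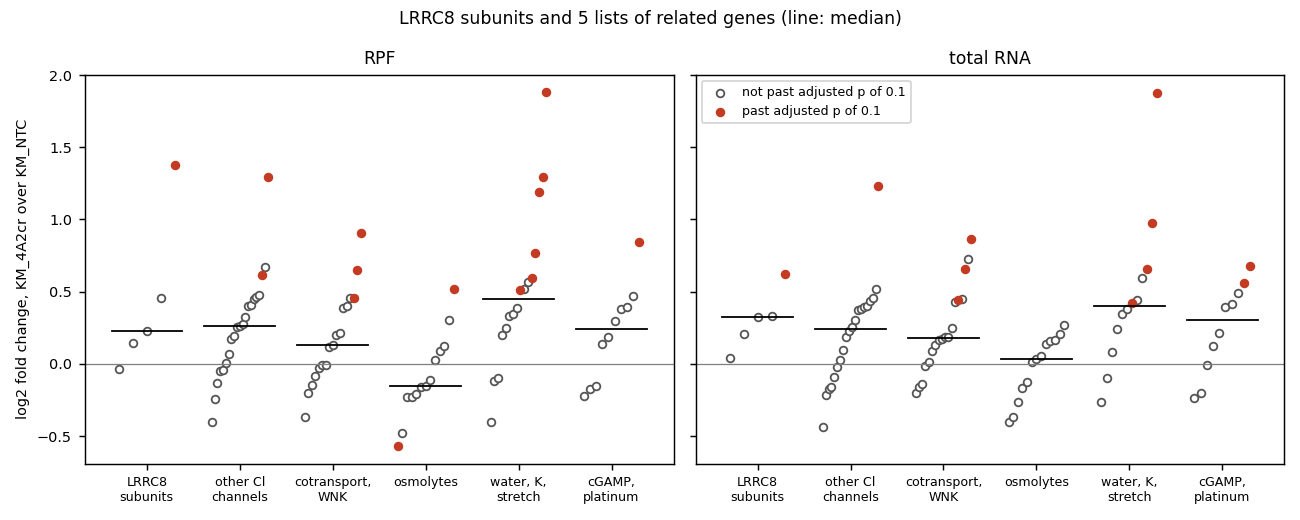
log2 fold change (KM_4A2cr over KM_NTC) of the 5 subunits and of each tested gene of the 5 lists in RPFs (left) and total RNA (right), with filled points past an adjusted p of 0.1 and a line at the median of each column. The medians of the lists run from -0.15 to 0.45 in RPFs, with most calls among water, potassium and stretch channels (6 of 16).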

How the data were processed

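The RPF values deposited are whole counts over the coding sequence of a transcript, which the authors obtained from reads trimmed with cutadapt 1.18, aligned with BBmap to 1 GENCODE vM27 transcript per gene and deduplicated with UMI-tools 1.0.1. Deposited with them, for total RNA, are the expected counts and TPM of each isoform, which the authors took from Bowtie2 2.3.5.1 and RSEM 1.3.3. SAMtools 1.9 and DESeq2 are also listed in the submitters' processing notes. RSEM divides reads shared by isoforms by estimation, so the split between isoforms of a gene is less certain than their sum.

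The expected counts of 38315 isoforms were added up within 20622 genes, then rounded, as 27 to 58 isoforms a library had fractional values. The 15235 RPF transcripts were joined by gene identifier, with 0 left over, and 20586 genes had a symbol. Genes were filtered with filterByExpr, scaled by TMM within each kind of library and tested in R 4.3.3 with edgeR 4.0.16 (quasi-likelihood, replicate number as a block, Benjamini-Hochberg adjusted p under 0.1). TE was fitted in 1 model of all 16 libraries, with lysate terms, as the interaction between line and library kind. DESeq2 1.42.0 was an alternative. The test scripts were tried on simulated counts. Footprints were not divided by coding length, as first planned, because coding lengths were not used here.

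The series' design text describes replicates as separate experiments on different days, and both cell lines carry numbers 1 to 4. That a number stands for the same day in either line is not stated. Deviations from the cell line means correlated within numbers 1 to 4 at 0.764, 0.782, 0.575 and 0.687 in RPFs and 0.756, 0.736, 0.611 and 0.708 in total RNA. P-values measure the spread between replicate experiments of 1 KM_NTC line and 1 pool of clones. Baseline values of subunits were compared by exact sign-flip tests over 4 lysates.

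The subunits and the 5 gene lists were chosen with earlier results of these data known. Named from each list were up to 4 genes with the smallest RPF p among those past the threshold in any kind of library, and the 2 with the highest RPF CPM in KM_NTC. Log2 CPM used a prior count of 2. Certain genes and alleles are not reported here.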

Additional observations from a re-analysis of the deposited data

Results flagged for a closer look

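Within each group of 4 libraries, the gap of the most extreme library to its neighbour was compared with the group's range for the 5 subunits, in 30 groups, and 1 was past Dixon's 95% critical value. In KM_4A2cr replicate 4, *Lrrc8c* had 1.46 RPF CPM per total RNA CPM, against 0.797 to 0.883 in the other 3 KM_4A2cr replicates. KM_NTC replicate 4, at 1.25, was likewise the highest of its line. Chance alone marks about 1 in 20 such groups. The same library had the fewest RPF counts of all, 4512403, and the part of its depth in this value was not tested.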

How the results depend on the processing

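Over the alternatives run, *Lrrc8b* had log2 fold changes of 1.2 to 1.64 in RPFs, 0.47 to 0.78 in total RNA and 0.65 to 0.85 in TE. *Lrrc8a* ranged over 0.33 to 0.67, 0.05 to 0.36 and 0.19 to 0.31, while *Lrrc8c*, *Lrrc8d* and *Lrrc8e* passed 0 in RPFs (-0.17 to 0.12, -0.05 to 0.37 and -0.09 to 0.49). *Lrrc8e* has no value under the stricter filter, which removes it.

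The number of genes called over all genes depended strongly on the setting, and the causes were not tested. In RPFs (1062 called) it was 0 without the replicate block, 1619 with library-size scaling, 438 at an adjusted p under 0.05, and 32 (without replicate 3) to 3469 (without replicate 4). In total RNA (667) it was 0 without the block, 1130 with library-size scaling, 1268 with no filter, 321 at 0.05, and 63 to 3260 with a replicate left out. In TE (287) it was 0 without the block, 136 with DESeq2, 133 with library-size scaling, 470 with no filter, 75 at 0.05, and 15 to 800 with a replicate left out. At an unadjusted p under 0.05, edgeR without the block had 365, 362 and 22 genes. Of the calls, 63.9% were higher in RPFs, against 29.8% with library-size scaling and 53.5% with upper-quartile scaling. In total RNA 70.9% were higher, against 23.2% and 60.1%, and in TE 65.2%, against 78.9% with library-size scaling.

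Listed genes called, chosen after seeing the data as a result to vary, were 14 in RPFs, 0 without the block and 1 to 43 with a replicate left out. In total RNA (10) they were 0 without the block, 6 with DESeq2, 5 with upper-quartile and 6 with library-size scaling, 17 with no filter, 4 with the stricter filter, 4 with the RPF isoform only, and 1 to 49 with a replicate left out. In TE (3) they were 0 without the block, 1 with library-size scaling, and 0 to 7 with a replicate left out.

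With counts of the RPF isoform per kb in place of TPM, which leaves out 1 of 2 isoforms of *Lrrc8a* and *Lrrc8d*, mRNA shares in KM_NTC and KM_4A2cr were 19.6% and 19.4% for *Lrrc8a*, 18.1% and 23.9% for *Lrrc8b*, 57.1% and 50.7% for *Lrrc8c* and 4.44% and 5.1% for *Lrrc8d*. Baseline footprints per mRNA relative to *Lrrc8c* were then -0.68 on the log2 scale for *Lrrc8a* (main value -1.65) and 0.38 for *Lrrc8d* (-0.71). The direction of *Lrrc8d* turned with part of its mRNA left out and its RPFs unchanged. In the KM_4A2cr lysates, by TPM, the values relative to *Lrrc8c* were -1.33 for *Lrrc8a* and -2.85 for *Lrrc8b* (-3.60 in KM_NTC).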
